A study of Mus musculus with 60 samples.

Results

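The Myc and Max network comprises transcription factors of the basic helix-loop-helix leucine zipper family, and 10 of its genes were followed in single breast cancer cells recovered from bone. The genes were taken by name (Myc, Mycn, Mycl, Max, Mxd1, Mxd3, Mxd4, Mxi1, Mnt and Mlx). All 10 were found among the 47729 mouse genes of the count table, and 9 of them reached at least 1 CPM (counts scaled to a library of 1000000) in a group of cells. The cells were PyMT-Bo1, a mouse mammary tumor line that carries luciferase and fluorescent protein transgenes. They were stained with the membrane dye DiD, which is diluted at each division, and injected into the heart of young adult female wild-type C57BL6 mice. Femurs and tibias of 5 such mice were pooled, and tumor cells were sorted 1 per well into 32 DiD+ cells (DiD intensity High, called dormant) and 28 DiD- cells (DiD intensity Low, called proliferative). Both groups therefore share the line, the dye, the host strain and the sort.

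Myc binds DNA as a dimer with Max at the E-box CACGTG and drives genes of ribosome production, nucleotide synthesis and cell growth. The Mxd proteins, Mxi1 and Mnt compete for Max and bind the same sites with Sin3 corepressors and histone deacetylases. Mxd1 and Mxd4 are best known from differentiating or resting cells, whereas Mxd3 is known from cells in S phase. Mlx is a Max-like protein that pairs with the glucose sensor Mlxip, and also with Mxd1, Mxd4 and Mnt. The network is thus often described as a switch between growth and rest.

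In each cell, counts were estimated for every gene, and the level of a group is the sum of its cells' counts scaled to CPM by the summed counts on mouse genes. The summed depth per cell was 2276789 to 7794219 counts in DiD+ cells and 2624405 to 6199108 counts in DiD- cells. No mouse was named for a cell, so each group counts as 1 sample. The group differences below have no replicate check and no p-value, and intervals are 95% intervals. Those of levels cover the counting of reads only, and the reads carry no molecular identifiers, so the sampling of molecules is not covered. Those of shares of cells treat the cells of a pool as independent draws. Neither kind covers differences between cells in level or between mice. The log2 ratio of DiD+ over DiD- is on the log2(CPM + 1) scale, which understates the change of low genes. A member is counted as different when this ratio was at least 1 in size, a 2-fold difference.

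Some wells held counts on markers of bone marrow host cells, although the sort was gated against CD45 and dead cells. Ptprc, the CD45 gene, had counts in 6 DiD+ and 1 DiD- cells, of which 5 and 1 were among the wells described next. A well was set apart when 0.5 or more of the genes of a marker list had at least 10 counts each. By this rule, 7 DiD+ wells and 3 DiD- wells carried macrophage, erythroid, megakaryocyte or neutrophil markers. Many results, but not all, are also given without these wells. Macrophage markers (13 genes) summed to 0 to 19893 CPM in DiD+ cells and 0 to 1731 CPM in DiD- cells, and every one of the 13 had counts in both groups. The keratin genes Krt8 and Krt18 summed to 1831 and 728 CPM for the DiD+ group and to 3395 and 1578 CPM for the DiD- group. Epcam, Krt7 and Krt19 had 0 counts in both groups, so the epithelial label rests on Krt8 and Krt18. Luciferase, a transgene that marks the injected line, had counts in 31 of 32 DiD+ and 28 of 28 DiD- cells. In a sum over cells, a smaller number of expressing cells and less RNA per cell cannot be told apart, so shares of cells are given beside the sums. The cells are numbered 17 to 46 (18 DiD+ and 12 DiD-) and 63 to 92 (14 DiD+ and 16 DiD-) in their labels, which do not say what the numbers stand for. Many ratios, but not all, are also given within each of these number ranges.

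The promoter windows of the members that differed most, and of a pair of genes known as targets of Mlx with Mlxip, were read from RefSeq (GRCm38.p6), where 9 of the 10 members matched an entry. Myc is the member with no entry. Each window runs from 250 bases before to 50 bases after the gene start and is written 5′ to 3′ on the gene's strand. Capitals mark the E-box CACGTG (the same on both strands) and the motif CACGAG (searched on both strands).
Mxd4 (chr5:34187661-34187960, minus strand): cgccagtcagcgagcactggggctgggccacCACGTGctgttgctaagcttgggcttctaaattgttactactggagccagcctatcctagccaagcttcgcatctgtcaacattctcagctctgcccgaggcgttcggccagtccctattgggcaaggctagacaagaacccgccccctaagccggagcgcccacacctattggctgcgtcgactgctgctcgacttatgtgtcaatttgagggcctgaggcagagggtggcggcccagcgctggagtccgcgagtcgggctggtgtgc
Mxd3 (chr13:55329682-55329981, minus strand): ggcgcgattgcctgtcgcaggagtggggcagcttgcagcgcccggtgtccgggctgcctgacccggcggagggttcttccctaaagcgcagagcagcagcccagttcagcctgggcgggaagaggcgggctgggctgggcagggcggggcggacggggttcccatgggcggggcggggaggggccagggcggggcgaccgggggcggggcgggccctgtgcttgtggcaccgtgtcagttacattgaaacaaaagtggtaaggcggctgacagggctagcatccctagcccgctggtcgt
Txnip (chr3:96557707-96558006, plus strand): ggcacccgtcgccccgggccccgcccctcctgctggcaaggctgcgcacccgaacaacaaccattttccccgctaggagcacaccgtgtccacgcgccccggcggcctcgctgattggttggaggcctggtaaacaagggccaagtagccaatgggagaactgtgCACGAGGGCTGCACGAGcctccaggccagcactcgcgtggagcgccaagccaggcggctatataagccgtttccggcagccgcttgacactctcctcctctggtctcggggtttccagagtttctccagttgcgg
Arrdc4 (chr7:68749189-68749488, minus strand): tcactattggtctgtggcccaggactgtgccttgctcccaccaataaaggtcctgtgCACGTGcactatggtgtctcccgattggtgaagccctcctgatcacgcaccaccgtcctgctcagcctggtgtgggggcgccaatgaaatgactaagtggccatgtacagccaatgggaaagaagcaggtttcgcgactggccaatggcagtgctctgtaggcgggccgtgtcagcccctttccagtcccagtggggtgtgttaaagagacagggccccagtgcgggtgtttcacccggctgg
Mxd4 holds 1 E-box, which begins 219 bases before its start, and the Mxd3 window holds neither motif. Txnip holds 2 copies of CACGAG that begin 85 and 74 bases before its start and are 5 bases apart. They form the arrangement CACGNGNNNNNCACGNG, known as a carbohydrate response element, and this is why its capitals run on through the spacer. Arrdc4 holds 1 E-box, 193 bases before its start. Of 32851 promoter windows of this length, 7.15% hold CACGTG, 6.47% hold CACGAG and 0.0487% hold the paired arrangement on either strand. Among the members, Max, Mxd4, Mnt and Mlx hold CACGTG and Mxd1 holds CACGAG, while Mycn, Mycl, Mxd3 and the 3 windows of Mxi1 hold neither. A match describes letters in the window and is not evidence of binding.

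Myc itself was not lower in the DiD+ cells. Its gene lies on chromosome 15 (61985391 to 61990374, plus strand, GRCm38) and it had counts in 28 of 32 DiD+ cells (87.5%, exact interval 71 to 96.5%) against 22 of 28 DiD- cells (78.6%, 59.0 to 91.7%). Per cell, Myc ranged from 0 to 481 CPM in DiD+ cells with a median of 55.2 CPM, and from 0 to 220 CPM in DiD- cells with a median of 45.1 CPM. The groups thus overlapped over nearly the whole range of the DiD- cells, and the highest level of all was in DiD+ cell 17. Summed over cells, Myc came to 101 CPM (99.1 to 102) for the DiD+ group and 66.8 CPM (65.4 to 68.3) for the DiD- group, which is a log2 ratio of 0.58. Cell 17 alone held 16.8% of the DiD+ Myc counts, and the ratio was 0.37 without it, 0.72 without DiD- cell 39 and between these values without any other cell. It was 0.50 among cells 17 to 46, 0.53 among cells 63 to 92 and 0.82 without the wells with host markers. When each cell was scaled by its spike-in total, the ratio of Myc was 0.23, while the median of all genes moved from 0.04 to -0.33. Relative to that median, Myc was then 0.56 higher.

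The other Myc genes were nearly silent. Mycn, the paralog best known from neuroblastoma and embryonic tissue, had 0 counts in 32 DiD+ cells, which by a limit of 3 cells allows a share of up to 9.38% of cells with a count. In the DiD- cells, all 128 of its counts came from cell 65, where Mycn was at 30.1 CPM and Myc had 0 counts. The summed DiD- level of 1.07 CPM thus rests on that cell. Mycl, first described in lung cancer, had 0 counts in all 60 cells.

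Max, the partner shared by Myc and the repressors, stood at nearly the same CPM level in both groups. Its gene lies on chromosome 12 (76937269 to 76962201, minus strand). It ranged from 0 to 65.3 CPM with a median of 21.8 CPM in DiD+ cells and from 0 to 76.1 CPM with a median of 19 CPM in DiD- cells. Its DiD+ sum of 24.6 CPM (23.8 to 25.4) and DiD- sum of 24.1 CPM (23.2 to 25) gave a log2 ratio of 0.03. Max had counts in 28 of 32 and 24 of 28 cells. The ratio was -0.45 with spike-in scaling, -0.12 relative to the median of all genes under that scaling, and its sign also differed between cells 17 to 46 (-0.18) and cells 63 to 92 (0.27).

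**Figure D1:**
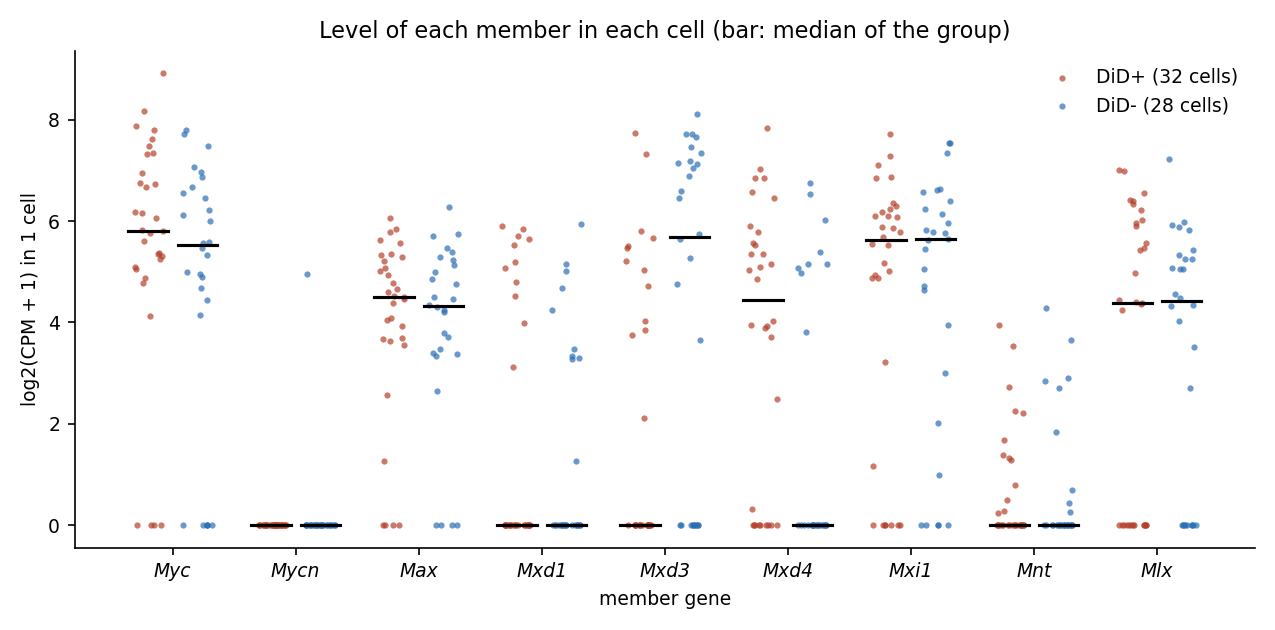
Level of each member in each cell as log2(CPM + 1) on the vertical axis, with 1 point per cell, DiD+ cells in red, DiD- cells in blue and the group median as a black bar. Mycl, at 0 in every cell, is not drawn. The Mxd3 median is 0 in DiD+ cells and 50.7 CPM in DiD- cells, the Mxd4 median is 21.7 CPM in DiD+ cells and 0 in DiD- cells, and the Myc, Max, Mxi1 and Mlx medians lie close together.

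The repressors moved in opposite directions. Mxd3 was 3.66-fold lower and Mxd4 2.48-fold higher in DiD+ than in DiD- cells, while Mxi1 and Mnt differed by under 1.5-fold. These directions of Mxd3 and Mxd4 held under all 10 alternatives of scaling, pseudocount and cells. A change of pseudocount cannot alter a direction, so those alternatives are no check of it. Of the 12432 genes that reached 1 CPM in either group, 12.1% were at least 2-fold higher and 4.86% at least 2-fold lower in DiD+ cells. Of the 9 members above that minimum, 1 was higher (Mxd4) and 2 were lower (Mxd3 and Mycn, the latter by cell 65 alone and above the minimum only through the DiD- cells). Both shares rest on 1 and 2 genes, and nothing particular to the network is read from them.

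Mxd3, on chromosome 13 (55325168 to 55329823, minus strand), had counts in 13 of 32 DiD+ cells (40.6%, 23.7 to 59.4%) against 18 of 28 DiD- cells (64.3%, 44.1 to 81.4%). Its level ranged from 0 to 212 CPM with a median of 0 in DiD+ cells, and from 0 to 277 CPM with a median of 50.7 CPM in DiD- cells. The groups overlapped, but cells that held Mxd3 had a median of 36.3 CPM in the DiD+ group and 135 CPM in the DiD- group, so both the share of cells and the level in them were lower in DiD+ cells. The DiD+ sum of 20.9 CPM (20.2 to 21.7) and DiD- sum of 76.6 CPM (75.1 to 78.2) gave a log2 ratio of -1.82. DiD+ cell 63 held 24.4% of its group's Mxd3 counts, and the ratio was -2.17 without it and at most -1.73 without any other cell. None of the 7 DiD+ wells with host markers had an Mxd3 count, while 2 of the 3 such DiD- wells did, and the ratio was -1.36 without all of these wells. It was -2.81 among cells 17 to 46 and -0.99 among cells 63 to 92, so the direction was shared but the size was not.

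Exons of Mxd3 share 105 bases with Prelid1, an abundant gene of the opposite strand, and the libraries do not mark strand. Prelid1 summed to 640.2 CPM for the DiD+ and 700.0 CPM for the DiD- group, and it had counts in all 29 cells where Mxd3 had 0 counts. Across the 60 cells the rank correlation of Mxd3 with Prelid1 was -0.06.

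Mxd4, on chromosome 5 (34173883 to 34187720, minus strand), showed the reverse pattern. It had counts in 23 of 32 DiD+ cells (71.9%, 53.3 to 86.3%) against 9 of 28 DiD- cells (32.1%, 15.9 to 52.4%). The level ranged from 0 to 228 CPM with a median of 21.7 CPM in DiD+ cells and from 0 to 107 CPM with a median of 0 in DiD- cells. Cells that held Mxd4 had similar medians in both groups (39.9 CPM and 34.4 CPM), so the difference in sums lay mainly in the share of cells. The DiD+ sum of 37.7 CPM (36.7 to 38.7) and DiD- sum of 15.2 CPM (14.5 to 15.9) gave a log2 ratio of 1.26. It ranged from 1.02 without DiD+ cell 43 to 1.6 without DiD- cell 45, and was 1.52 without the wells with host markers. Within the number ranges it was 1.82 among cells 17 to 46 and 0.41 among cells 63 to 92, where it no longer reached 2-fold. With spike-in scaling it was 0.77, or 1.10 relative to the median of all genes.

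Thinning every cell to 2200000 counts left these shares as they were, with 13 and 18 cells for Mxd3 and 23 and 9 cells for Mxd4. Nearly all cells with these genes held enough reads on them that thinning could hardly bring them to 0, and the number of genes detected per cell was not matched.

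**Figure D2:**
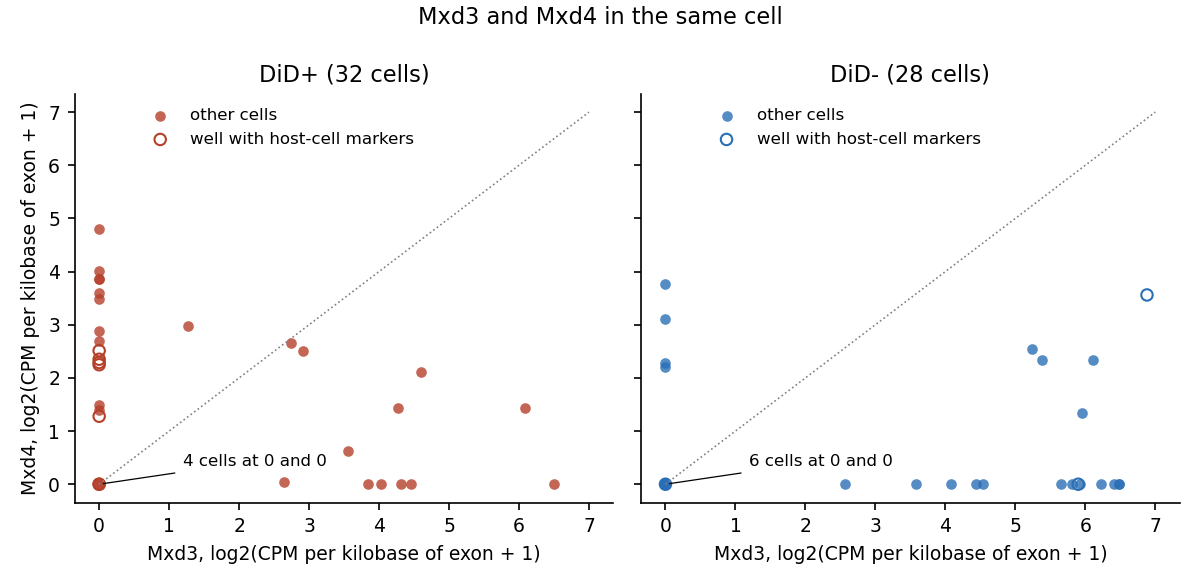
Mxd3 (horizontal axis) against Mxd4 (vertical axis) in the same cell, both as log2(CPM per kilobase of exon + 1), for DiD+ cells on the left and DiD- cells on the right. Open circles are wells with host-cell markers and the dotted line marks equal levels. With Mxd4 alone, 15 DiD+ and 4 DiD- cells lie on the vertical axis, and with Mxd3 alone 5 DiD+ and 13 DiD- cells lie on the horizontal axis.

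Set side by side per kilobase of exon within a cell, Mxd4 exceeded Mxd3 in 16 of 32 DiD+ cells (interval of the share 31.9 to 68.1%) against 4 of 28 DiD- cells (14.3%, 4.03 to 32.7%). Mxd3 exceeded Mxd4 in 12 DiD+ cells (37.5%, 21.1 to 56.3%) against 18 DiD- cells (64.3%, 44.1 to 81.4%). Counts on Mxd4 but not Mxd3 were seen in 15 DiD+ and 4 DiD- cells, counts on Mxd3 but not Mxd4 in 5 and 13 cells, both in 8 and 5 cells, and neither in 4 and 6 cells. Cells with counts on both were therefore a minority in each group. Without the wells with host markers, Mxd4 exceeded Mxd3 in 11 of 25 DiD+ cells and 4 of 25 DiD- cells, and Mxd3 exceeded Mxd4 in 12 and 16 cells.

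The remaining repressors differed less. Mxi1, which shares the Sin3-binding domain of the Mxd proteins, was the most widely counted of them, in 25 of 32 DiD+ and 23 of 28 DiD- cells. Its gene lies on chromosome 19 (53310518 to 53375810, plus strand). Mxi1 ranged from 0 to 208 CPM (median 48.2) and from 0 to 184 CPM (median 48.9). Its sums were 53.9 and 56.0 CPM, a log2 ratio of -0.05 that took either sign when 1 cell was left out (-0.20 to 0.09). The ratio was 0.10 without the wells with host markers, 0.07 among cells 17 to 46 and -0.15 among cells 63 to 92. Mxd1, on chromosome 6 (86647042 to 86669161, minus strand), was counted in 11 of 32 DiD+ cells and 10 of 28 DiD- cells, up to 59.0 and 60.1 CPM, with a median of 0 in both. Its sums of 11.2 and 7.37 CPM gave a log2 ratio of 0.54, but 32.8% of the DiD- counts came from cell 39, and the ratio was 0.99 without it, -0.13 among cells 17 to 46 and 1.34 among cells 63 to 92. The direction of Mxd1 was thus not shared by the number ranges. Mnt, the broadly expressed antagonist of Myc on chromosome 11 (74830920 to 74845725, plus strand), was the lowest member with counts in both groups, with sums of 1.36 and 1.63 CPM (log2 ratio -0.16) and at most 14.4 and 18.4 CPM in a cell. DiD- cell 89 held 43.1% of its group's Mnt counts, and the ratio was 0.26 without it. The Mnt ratio was -0.33 without the wells with host markers, 0.45 among cells 17 to 46 and -0.49 among cells 63 to 92. The median log2 ratio over the 5 repressors was -0.05, against 0.04 over all genes, and it joins Mxd3 and Mxd4 at opposite ends.

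Mlx, the Max-like partner on chromosome 11 (101087277 to 101092207, plus strand), was counted in 19 of 32 DiD+ and 19 of 28 DiD- cells, with medians of 20 and 20.3 CPM and highest levels of 128 and 149 CPM. Its DiD+ sum of 35.5 CPM (34.6 to 36.5) and DiD- sum of 25.2 CPM (24.3 to 26.1) gave a log2 ratio of 0.48, which was 0.35 without DiD+ cell 41, 0.88 and 0.19 in the lower and higher number range, and -0.11 with spike-in scaling (0.22 relative to the median of all genes). Its exons share 385 bases with Psmc3ip on the opposite strand. Psmc3ip had 27.1 and 35.7 CPM, and 10 of the 19 DiD+ cells and 3 of the 19 DiD- cells with Mlx counts had no Psmc3ip count.

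**Figure D3:**
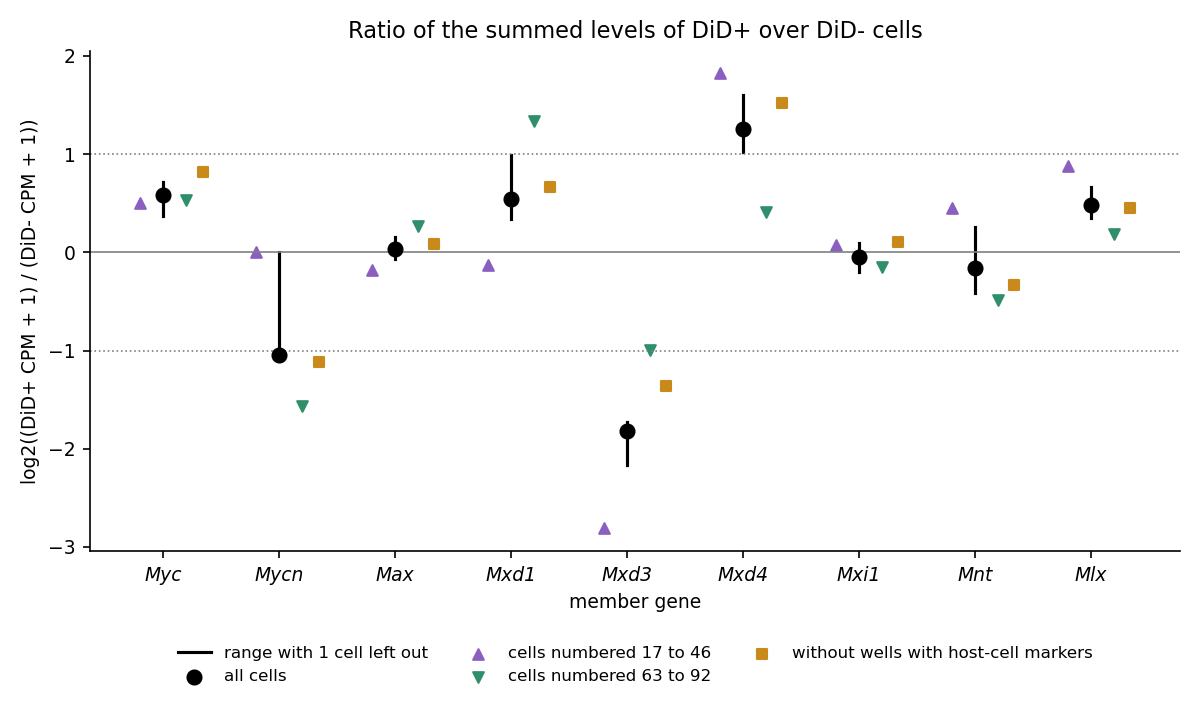
Log2 ratio of DiD+ over DiD- for 9 members (vertical axis). Black points are all cells, black lines the range when 1 cell is left out, purple and green triangles the number ranges 17 to 46 and 63 to 92, and orange squares the cells without wells that hold host-cell markers. Dotted lines mark 2-fold. Mxd3 lies below 0 and Myc, Mxd4 and Mlx lie above 0 under every marker, whereas Max, Mxd1, Mxi1 and Mnt take both signs.

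Per kilobase of exon, which allows genes to be compared with each other, Myc was the highest member in DiD+ cells at 37.1 CPM per kilobase, ahead of Mlx (17.8), Mxd3 (8.83), Mxi1 (7.90), Max (6.83), Mxd4 (4.44), Mxd1 (1.58) and Mnt (0.293). In DiD- cells, Mxd3 was the highest at 32.3 CPM per kilobase, ahead of Myc (24.6), Mlx (12.6), Mxi1 (8.20), Max (6.70), Mxd4 (1.79), Mxd1 (1.04), Mnt (0.353) and Mycn (0.325). The range over cells of every one of these members began at 0, so neighbours in the order overlapped within each group. With the longest transcript as the length, Max (12.7) stood above Mxd3 (12) and Mxi1 (10.7) in DiD+ cells. The 5 repressors together came to 23 CPM per kilobase in DiD+ cells and 43.7 in DiD- cells. Mxd3 made up 38.3% of this sum in DiD+ and 74% in DiD- cells, and Mxd4 19.3% and 4.09%. The ratio of Myc to this sum was 1.61 in DiD+ and 0.562 in DiD- cells (1.28 and 0.474 with the longest transcript). It was 2.14 and 0.649 among cells 17 to 46, 1.06 and 0.482 among cells 63 to 92, and 1.51 and 0.558 without the wells with host markers. The Mxd3 share of the repressor sum in DiD+ cells was 23.9% in the lower and 53.2% in the higher number range. Without the wells with host markers that share was 42.4%. These are transcript levels, and protein was not measured.

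Cell cycle genes were lower in DiD+ cells, and the members differed in how they followed them from cell to cell. Of 42 S phase genes above the minimum of 1 CPM, 41 had a lower level in DiD+ cells (median log2 ratio -0.70), and of 54 G2/M genes 50 did (median -0.47). Of all genes above that minimum, 46.8% were lower (median 0.04). Without the wells with host markers, 39 S phase genes (median -0.59) and 45 G2/M genes (median -0.19) were lower. The S phase median was -1.10 among cells 17 to 46 and -0.34 among cells 63 to 92. At the ends of the S phase list were the helicase subunit Mcm3 (-1.58) and Uhrf1 (-1.34), and Slbp (-0.22), Dscc1 (-0.12) and Dtl (-0.07). At the ends of the G2/M list were Top2a (-1.22), Bub1 (-1.20) and Aurkb (-1.14), and G2e3 (0.03), Ckap2 (0.23) and Psrc1 (0.75). The G2/M genes had a median of -1.11 among cells 17 to 46 and 0.10 among cells 63 to 92, where 22 of 54 were lower, whereas Mxd3 was lower in both ranges (-2.81 and -0.99). The range with the larger cell cycle difference was therefore also the range with the larger Mxd3 and Mxd4 differences. The part of cell cycle in the Mxd3 difference was not tested.

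Summed over the G2/M list, cells ranged from 1302 to 31710.4 CPM in the DiD+ group (median 2335) and from 1019 to 25710.0 CPM in the DiD- group (median 7419.9). The 29 cells without an Mxd3 count ranged from 1019 to 6933 CPM, the highest being DiD+ cell 80. The 31 cells with an Mxd3 count ranged from 2068 to 31710.4 CPM. Of these, 22 cells (8 DiD+ and 14 DiD-) lay above cell 80, a level taken from these same data. Across the 60 cells, Mxd3 correlated with the G2/M sum (Pearson r 0.78, Spearman rho 0.77) and with the S phase sum (r 0.60, rho 0.58), all on the log2(CPM + 1) scale. Within the 32 DiD+ and the 28 DiD- cells, rho was 0.73 and 0.75 against G2/M, and 0.67 and 0.31 against S phase. Mxd4 ran the other way, with rho -0.40 against G2/M and -0.31 against S phase over the 60 cells. Within the DiD+ and DiD- cells, the rho of Mxd4 was -0.34 and -0.20 against G2/M, and only -0.15 and -0.17 against S phase. Myc followed neither (rho -0.11 and 0.02). Without the wells with host markers, rho against G2/M was 0.78 for Mxd3, -0.49 for Mxd4 and -0.21 for Myc. Max, Mxd1, Mxi1, Mnt and Mlx had rho between -0.13 and 0.11 against both sums. These 16 relations over the 60 cells are descriptions, out of 168 computed with other measures and within groups. That count leaves out the ranking of 7543 genes against each of Mxd3, Mxd4 and Myc, given below. The cells of a pair of values share a library and its scaling, and Mxd3 and the G2/M sum both went with the number of genes detected in a cell (rho 0.47 and 0.48). Both also ran opposite to the spike-in share of a cell (rho -0.45 and -0.44).

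**Figure D4:**
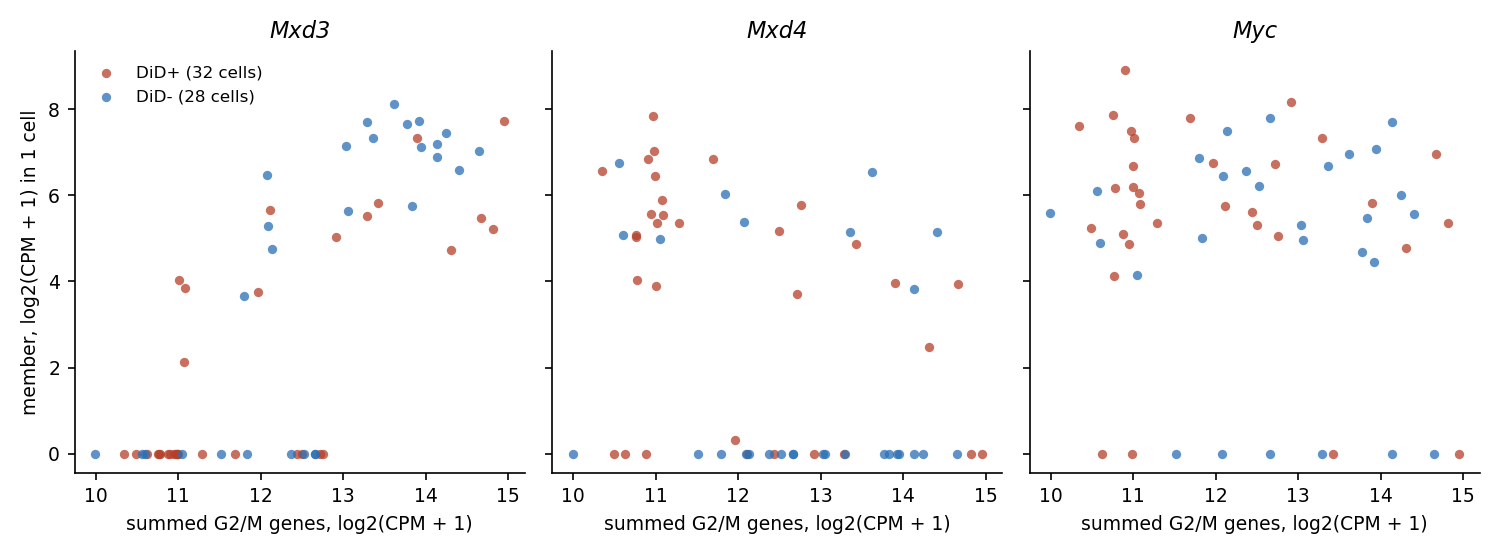
Mxd3, Mxd4 and Myc in each cell (vertical axes, log2(CPM + 1)) against the summed level of 54 G2/M genes (horizontal axes, log2(CPM + 1)), with DiD+ cells in red and DiD- cells in blue. The 29 cells without an Mxd3 count reach up to a G2/M sum of 6933 CPM, and the 31 cells with one span 2068 to 31710.4 CPM. Cells with Mxd4 are most frequent at low sums, and Myc shows no slope.

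Among 7543 genes that reached 10 CPM in either group and were counted in 30 cells or more, the genes most like Mxd3 over the 60 cells by Spearman rho were Ska3 (0.87), which joins microtubules to kinetochores, the mitotic kinase Cdk1 (0.86), Incenp (0.86), the kinase Pbk (0.85) and Aurkb (0.85), which forms the chromosomal passenger complex with Incenp. The genes most like Mxd4 were Gstm5 (0.58), Fnta (0.57), Rex1bd (0.55), Tmem53 (0.55) and Cdk2ap2 (0.55). Those most like Myc were Scyl2 (0.50), the ERK phosphatase Dusp5 (0.48), the stress gene Gadd45a (0.47), Ccnl1 (0.47) and the immediate early gene Ier5 (0.45). The likeness of Mxd3 to its neighbours was thus much closer than that of Mxd4 or Myc to theirs. Each set is the top of a ranking of 7543 genes on these same 60 cells, so its rho values are high by selection. How high the top values would be without any relation was not tested, and no shared theme is read from these genes.

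Growth genes known as Myc targets were mostly lower in DiD+ cells while Myc was not. Of 43 genes for ribosome production, nucleolar function and growth above the same minimum, 36 were lower and 7 higher in the DiD+ group (median log2 ratio -0.34), whereas 46.8% of all genes were lower. By size, 42 of the 43 were within 2-fold. The lowest ratios were those of the small subunit processome gene Utp20 (6.20 and 17.3 CPM, -1.34), Rrp9 of the U3 particle (49.4 and 76.3 CPM, -0.62) and Nolc1 (90.1 and 138 CPM, -0.61). The highest were those of Odc1, the enzyme that starts polyamine synthesis (326 and 300.0 CPM, 0.12), Polr1b of RNA polymerase I (0.14) and the ribosome assembly factor Rrs1 (76.9 and 58.6 CPM, 0.39). Polr1b was -1.42 among cells 17 to 46 and 2.58 among cells 63 to 92. The list's median was -0.32 without the wells with host markers, -0.54 among cells 17 to 46 (38 of 43 lower) and -0.17 among cells 63 to 92 (29 of 43 lower).

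From cell to cell, the summed level of this target list ran from 4718 to 17348 CPM in DiD+ cells (median 8285) and from 5675 to 17522 CPM in DiD- cells (median 11009.5), so the groups overlapped over most of their range. It did not follow Myc (rho 0.10 over the 60 cells). It ran opposite to Mxd4, with rho -0.56 over the 60 cells, -0.51 within the DiD+ cells and -0.46 within the DiD- cells. Other repressors also ran opposite to it, Mxi1 with rho -0.26 over the 60 cells, -0.05 within the DiD+ and -0.50 within the DiD- cells, and Mxd1 with rho -0.29, -0.24 and -0.38. Mxd3 followed it within the DiD+ cells (rho 0.47) but not within the DiD- cells (rho -0.24). Neither the target sum nor Mxd4 followed the total counts of a cell (rho 0.04 and -0.08) or the number of genes detected (0.03 and -0.04). Against the spike-in share, rho was -0.37 for the target sum and 0.18 for Mxd4.

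Genes that Myc is known to repress moved both ways. The cell cycle inhibitor Cdkn1a was at 688 and 364 CPM in DiD+ and DiD- cells (log2 ratio 0.91), with counts in all 60 cells, medians of 403 and 260 CPM per cell and ratios of 0.90 and 0.93 in the lower and higher number range. Gadd45a was at 70.6 and 21.7 CPM (1.66), but DiD+ cell 41 held 49.8% of the DiD+ counts and the ratio was 0.73 without it. The Gadd45a ratio was 2.10 in the lower and 0.34 in the higher number range. Ndrg1 was at 48.3 and 52.6 CPM (-0.12). Ndrg2 was at 0.828 and 5.83 CPM (-1.90) and was counted in 2 and 5 cells only, with ratios of -3.09 and -0.82 in the lower and higher number range. Cdkn2b had 0 counts in both groups.

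Txnip and Arrdc4, the arrestin genes whose promoters are shown above, are known to answer to Mlx with Mlxip when glucose metabolites are plentiful. Txnip, which limits glucose uptake, was counted in 24 of 32 DiD+ and 15 of 28 DiD- cells, from 0 to 670 CPM (median 51.5) and from 0 to 313 CPM (median 11.9). Its sums were 136 and 46.7 CPM, a log2 ratio of 1.53 that was 1.34 without DiD+ cell 43, 1.87 without DiD- cell 71, 1.48 without the wells with host markers, and 1.68 and 1.6 in the lower and higher number range. Arrdc4 was counted in 6 and 4 cells, with sums of 11.6 and 5.32 CPM (1.00), and its ratio was 0.26 without the wells with host markers, 0.48 when DiD+ cell 22 and 1.82 when DiD- cell 45 was left out. In the lower and higher number range the Arrdc4 ratio was 0.53 and 2.15. Among the partners, Mlxip was at 30.6 and 16.5 CPM (0.85), with 0.73 to 1.07 when 1 cell was left out and 0.96 and 0.81 in the lower and higher number range. The Max-binding repressor Mga was at 12 and 10.3 CPM (0.21), which was -0.13 without DiD+ cell 24. Mlxipl, the liver relative of Mlxip, had 0 counts. Mlx and Txnip did not rise together over the 60 cells (rho -0.17), and their rho was -0.35 within the DiD+ and 0.11 within the DiD- cells.

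**Figure D5:**
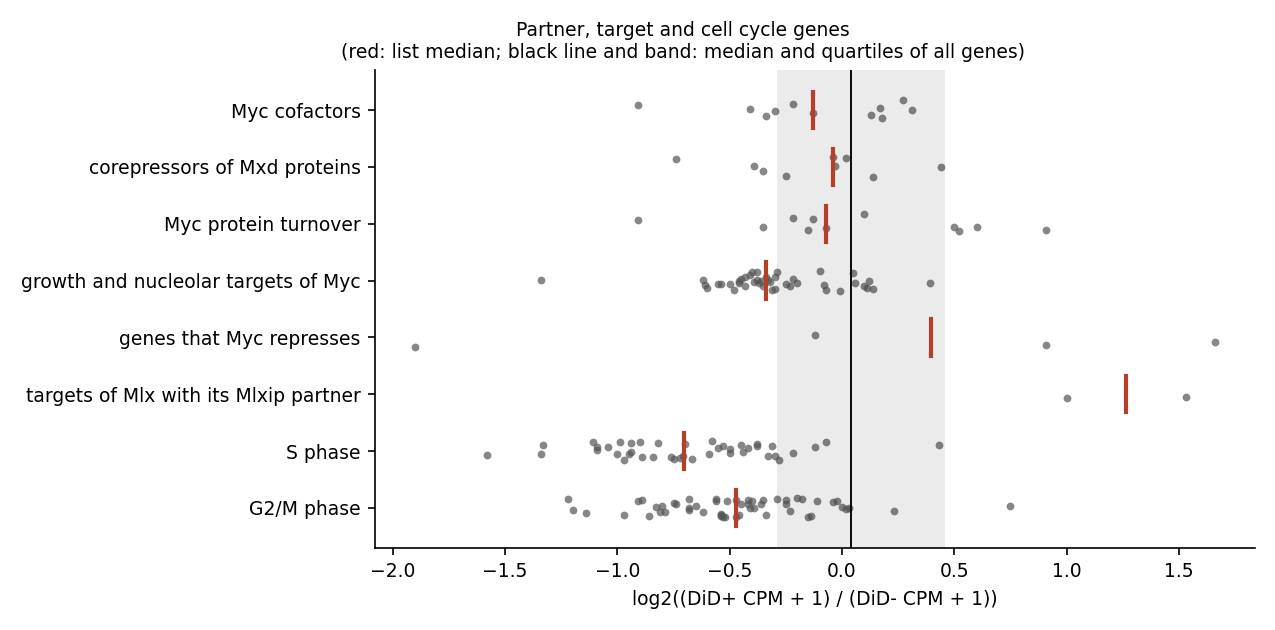
Log2 ratio of DiD+ over DiD- (horizontal axis) of each gene with at least 1 CPM in a group, by list. Red bars are list medians, and the black line and grey band are the median (0.04) and quartiles (-0.29 to 0.46) of all 12432 genes. The growth and nucleolar targets (median -0.34) and the S phase (-0.70) and G2/M (-0.47) genes lie mostly to the left, and the cofactor, corepressor and turnover lists lie around 0.

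Cofactors, corepressors and regulators of Myc protein stability had list medians near that of all genes. Of 11 Myc cofactors, 5 were higher and 6 lower (median -0.13), of 9 corepressors 3 were higher and 6 lower (median -0.04), and of 11 turnover genes 5 were higher and 6 lower (median -0.07). Without the wells with host markers, these medians were 0.08, -0.01 and -0.07. None of the genes in these lists was 2-fold apart over all cells. Among the cofactors, the ATPases Ruvbl2 (126 and 238 CPM, -0.91) and Ruvbl1 (199.9 and 265 CPM, -0.41) and the acetyltransferase Kat5 (-0.34) had the lowest ratios, and Wdr5 (0.18), Paf1 (0.27) and Ep400 (0.31) the highest. Ruvbl2 was counted in 31 of 32 and 28 of 28 cells, with medians of 141 and 243 CPM. Among the corepressors, the Mxd-binding scaffold Sin3a (16.6 and 28.5 CPM, -0.74), Hdac2 (-0.39) and Rbbp7 (-0.35) were among the lowest and Hdac1 (0.02) and Ncor1 (0.14) among the highest. Sin3a was -2.00 among cells 17 to 46 and 0.31 among cells 63 to 92. In the turnover list, Skp2, a ubiquitin ligase subunit that acts on Myc (21.4 and 41.1 CPM, -0.91) and the phosphatase inhibitor Set (-0.35) were among the lowest. The phosphatase subunit Ppp2r5a (89.2 and 62.6 CPM, 0.50), the ubiquitin ligase Huwe1 (66.6 and 43.6 CPM, 0.60) and the deubiquitinase Usp28 (22.7 and 11.6 CPM, 0.91) were highest, with Usp28 at 2.10 among cells 17 to 46 and -0.43 among cells 63 to 92.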

How the data were processed

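Per the authors' methods and the labels, reads of single PyMT-Bo1 cells were mapped by STAR onto GRCm38/mm10, with spike-ins and transgenes added, and counted with RSEM. The authors deposited these estimated counts without normalization (96.6% whole numbers, rounded here) and a BASiCS-normalized signal table, used only as an alternative scaling. Spike-ins and transgenes were left out of totals. Of the deposited value columns, 0 were left unused. Lengths and positions came from the GENCODE annotation of GRCm38, and promoter windows from RefSeq. Exact Poisson and Clopper-Pearson intervals were used. Correlations are descriptive. All 10 members were named, and of each other list either every gene (up to 5) or the 3 highest and 3 lowest ratios at 10 CPM or more. Of the genes this rule names, 3 are not reported here. Members and lists were chosen with earlier results of these data known. Wells that may hold more than 1 cell were kept unless stated, and no doublet caller was run. Python 3.11.15, scipy 1.17.1, R 4.3.3, edgeR 4.0.16 and DESeq2 1.42.0 (scaling factors only) were used.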

Additional observations from a re-analysis of the deposited data

How the results depend on the processing

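The log2 ratio of Myc kept its sign under all 10 alternatives, though a change of pseudocount cannot alter a sign. It was 0.54 with the authors' BASiCS values, 0.23 with spike-in scaling, 0.82 without the wells with host markers, 0.50 and 0.53 in cells 17 to 46 and 63 to 92, and 0.53 with a pseudocount of 10 CPM, and it ranged from 0.37 to 0.72 when 1 cell was left out. The median of the 5 repressors was -0.24 with spike-in scaling, 0.10 without the wells with host markers, and 0.07 and -0.15 in the number ranges, with -0.17 to 0.26 when 1 cell was left out. The median of the Myc growth targets was -0.38 with BASiCS values, -0.79 with spike-in scaling (where the median of all genes was -0.33) and -0.54 and -0.17 in the number ranges, with -0.41 to -0.27 when 1 cell was left out. The number of members at least 2-fold apart was 3, and 1 with spike-in scaling or a pseudocount of 10 CPM, with 2 to 3 when 1 cell was left out. Mxd3 ranged from -2.81 to -0.99 and Mxd4 from 0.41 to 1.82 over 10 alternatives each. The share of DiD+ cells with Mnt was 18.8% at 10 counts or more, against 40.6%. The number ranges were chosen after seeing the data. No paired analysis was possible because cells carry no label that pairs them across groups. A count of 0, as for Mycl in both groups, was given a limit of 3 counts over a group, which amount to 0.0205 CPM (DiD+) and 0.0251 CPM (DiD-). This limit is on reads and does not cover molecules missed in a cell. For scale, DiD- cell 65 alone held 128 counts on Mycn.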
